A study of Mus musculus with 7 samples.

Results

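The 10 genes described here encode secreted or absorptive peptides of the gut and pancreas and were chosen by name, with earlier results of these data known: *Pyy*, *Ppy*, *Ins2*, *Iapp*, *Sst*, *Calca*, *Fabp6*, *Reg3g*, *Reg3b* and *Spink1*. They are 10 of the 20839 genes listed in any of 7 droplet-based scRNA-seq libraries of thymic epithelial cells (TECs), sorted from C57BL/6 mice, and each library is a pool of 3 thymi. Both isotype control libraries came from mice given 100 µg of isotype antibody 3 times within 1 week, 1 collected at week 2 (age 4 weeks) and 1 at week 10 (age 12 weeks). The 4 anti-RANKL libraries came from mice given 100 µg of a blocking antibody to RANKL on the same schedule and were collected at week 2, 4, 6 and 10, at ages of 4, 6, 8 and 12 weeks, so that weeks 4 and 6 have no control of their own age. The *Aire* lineage trace library came from mice of 6 weeks carrying Aire-CreERT2 and R26-CAG-Stopfl-zsGreen, dosed with 2 mg tamoxifen on alternate days over 10 days, in which cells that used the *Aire* promoter during that time, and their descendants, can carry ZsGreen. The deposited value is the natural log of 1 plus the unique molecular identifiers (UMIs, each counting 1 captured RNA molecule) of a gene, scaled so that each cell totals 10000. Cells with no UMI of *Ptprc*, the pan-leukocyte gene that encodes CD45, numbered 8220 of 8453, and only these are described unless stated. They were divided by their *Aire* value into 5159 cells at 0, 1292 above 0 and up to 1.5, and 1769 above 1.5, called *Aire*-zero, *Aire*-low and *Aire*-high below. Their medians were 6484, 12210 and 12910 UMIs per cell. The classes were set at full depth, so a shallow cell can count as *Aire*-zero because its *Aire* RNA was not captured.

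Medullary TECs (mTECs) transcribe genes that are otherwise confined to single peripheral tissues, and thymocytes that recognise the resulting peptides are deleted or diverted. *Aire* encodes a nuclear protein that drives much of this transcription, and each such gene is usually transcribed in a small minority of mTECs. RANKL signals to RANK on mTECs and is needed for *Aire*-expressing cells to form. Of the 10 genes, *Pyy* encodes peptide YY of intestinal L cells and *Ppy* its homologue pancreatic polypeptide of islet PP cells. *Ins2* encodes insulin, *Iapp* amylin, which beta cells release with insulin, and *Sst* somatostatin of delta cells. *Calca* encodes calcitonin and calcitonin gene-related peptide, *Fabp6* the ileal bile acid-binding protein, *Reg3g* and *Reg3b* C-type lectins that Paneth cells and enterocytes release against bacteria, and *Spink1* the pancreatic secretory trypsin inhibitor.

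*Pyy* and *Ppy* are neighbours on the minus strand of chromosome 11, *Pyy* at 102106676 to 102107832 and *Ppy* at 102099930 to 102101319, 5357 bases apart (GENCODE vM21, GRCm38, the assembly that the study's mm10 reference names). *Reg3b* (78370657 to 78373466, plus strand) and *Reg3g* (78466269 to 78468872, minus strand) lie on chromosome 6, 92803 bases apart, and *Iapp* lies elsewhere on that chromosome (142298423 to 142303961, plus strand). *Ins2* (142678656 to 142743381, minus strand) and *Calca* (114631478 to 114636357, minus strand) are on chromosome 7, *Fabp6* on chromosome 11 (43596049 to 43601540, minus strand) and *Sst* on chromosome 16 (23889573 to 23890958, minus strand). All 10 are annotated as protein coding. Because each of the neighbouring pairs *Pyy* with *Ppy* and *Reg3g* with *Reg3b* was found in the same cells more often than expected, as described below, the 250 bases before their RefSeq start sites are printed, 5′ to 3′ on the strand of the gene, from RefSeq on GRCm38.p6. Capitals mark TATAAA, the core promoter motif, or its reverse complement TTTATA.
Pyy: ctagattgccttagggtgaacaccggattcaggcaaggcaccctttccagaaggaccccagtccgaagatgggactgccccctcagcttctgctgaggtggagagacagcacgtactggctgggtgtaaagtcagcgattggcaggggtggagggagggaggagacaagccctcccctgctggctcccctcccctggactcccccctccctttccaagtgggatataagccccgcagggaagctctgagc
Ppy: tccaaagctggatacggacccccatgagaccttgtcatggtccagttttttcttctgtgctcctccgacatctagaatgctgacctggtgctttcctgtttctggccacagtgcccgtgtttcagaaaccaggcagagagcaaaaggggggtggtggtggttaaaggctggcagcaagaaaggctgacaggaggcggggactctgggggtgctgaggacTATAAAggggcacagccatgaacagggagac
Reg3g: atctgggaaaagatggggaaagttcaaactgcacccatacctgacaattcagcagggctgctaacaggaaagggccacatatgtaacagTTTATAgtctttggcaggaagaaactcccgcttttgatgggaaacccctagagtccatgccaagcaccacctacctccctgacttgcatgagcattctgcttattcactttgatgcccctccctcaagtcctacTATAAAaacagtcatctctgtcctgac
Reg3b: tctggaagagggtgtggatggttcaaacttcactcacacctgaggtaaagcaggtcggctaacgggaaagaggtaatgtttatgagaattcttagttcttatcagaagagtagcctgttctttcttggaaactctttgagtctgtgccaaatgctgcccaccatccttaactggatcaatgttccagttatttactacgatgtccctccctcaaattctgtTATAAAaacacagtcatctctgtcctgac
The windows are chr11:102107833-102108082 for *Pyy*, chr11:102101320-102101569 for *Ppy*, chr6:78468875-78469124 for *Reg3g* and chr6:78370635-78370884 for *Reg3b*. The RefSeq start of *Reg3b* lies inside the GENCODE span given above, so most of its window overlaps that span. TATAAA began 31 bases before the start of *Ppy*, 27 before that of *Reg3g* and 29 before that of *Reg3b*, and *Reg3g* had a reverse match that began 161 bases before its start. Neither of the 2 *Pyy* windows in the tables held it on either strand. Of 32851 promoter windows of this length, 4063 (12.4%) held it on either strand, as did those of 4 of the 8 genes with a window (*Ppy*, *Fabp6*, *Reg3g* and *Reg3b*).

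The libraries held 730 to 1475 cells with medians of 4299.5 to 16809 UMIs per cell, the anti-RANKL week 4 and week 6 libraries being the shallowest at 4779 and 4299.5. Between 0 and 7 cell barcodes were shared by any 2 libraries, 50 in all. A gene was kept in a library only if at least 3 of its cells held it. By that filter *Sst* is unlisted at anti-RANKL weeks 2, 4 and 6, *Ppy*, *Ins2* and *Spink1* at week 4, and *Ins2* and *Reg3b* at week 6. Unlisted genes are entered as 0 in sums, which can miss at most 2 cells. Each anti-RANKL time point is 1 library, so it has no test, and its values are given with 95% intervals for binomial counting (exact, no error between animals or libraries included).

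*Reg3g* was found in 3175 of 8220 cells (38.6%), *Calca* in 1039 (12.6%), *Spink1* in 837 (10.2%), *Fabp6* in 721 (8.77%), *Iapp* in 687 (8.36%) and *Pyy* in 645 (7.85%). *Ppy* was found in 362 cells (4.40%), *Ins2* in 175 (2.13%), *Reg3b* in 133 (1.62%) and *Sst* in 102 (1.24%). The typical such cell held very little: the median was 1 UMI for 8 of the genes and 2 for *Ins2* and *Reg3g*, and 45.2% (*Reg3g*) to 70.2% (*Pyy*) of the cells with a gene had a single UMI. A few cells held very much. The 10 richest cells carried 19.8% of all *Calca* UMIs, 28.2% of *Fabp6*, 33.3% of *Reg3g*, 49.3% of *Spink1*, 57.3% of *Sst* and 73.3% of *Reg3b*. One *Aire*-zero cell of the anti-RANKL week 2 library held 4663 UMIs of *Reg3g* and 2895 of *Spink1* among its 27580, that is 16.9% and 10.5% of its RNA, and 57.9% of all *Spink1* UMIs of that library. The cell richest in *Sst*, an *Aire*-high cell of the week 10 control, held 187 UMIs of 6574.

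Free RNA puts single UMIs into cells that do not transcribe a gene, and T cells carried through the sort serve as a measure of it. In 35 T cells (at least 2 UMIs of *Cd3d*, *Cd3e* and *Cd3g* and none of *Epcam*, median 4322 UMIs) *Reg3g* was found in 6 (17.1%), *Pyy* and *Calca* in 3 each (8.57%), *Fabp6* in 2 (5.71%), *Ppy* in 1 (2.86%) and the other 5 genes in 0, which allows a share of up to 8.57% (3 counts of the total). The epithelial cells that held the genes were deeper, with medians from 12376 to 16485 UMIs. With each cell thinned at random to 2000 UMIs, which leaves 8048 cells and 28 T cells, *Reg3g* was found in 16.6% of cells against 3.57% of T cells, and the shares of *Pyy*, *Ppy* and *Fabp6* (1.83% to 3.504%) did not exceed the 1 of 28 T cells (3.57%) that held each. Shares of cells with a UMI of those 3 genes are therefore not read as expression. With so few T cells the interval of 1 in 28 reaches 18.3% and a count of 0 allows up to 10.7% by the same limit of 3 counts, so the shares of the other 7 genes are not shown to exceed free RNA either. A cell is called high-level for a gene if it held at least 10 UMIs per 10000 and at least 3 UMIs, a pair of limits set with the data in view. Such cells numbered 443 for *Reg3g*, 171 for *Calca*, 140 for *Fabp6*, 137 for *Spink1*, 110 for *Iapp*, 108 for *Pyy*, 77 for *Ppy*, 28 for *Ins2*, 26 for *Sst* and 16 for *Reg3b*. Together they were 924 cells, and they carried 74.9% (*Calca*) to 93.4% (*Spink1*) of a gene's UMIs. Among T cells, 1 of 35 was high-level for *Pyy* and *Ppy* and none for another of the genes. It was the only T cell with *Ppy*, so for that gene the T cells give no measure of single stray UMIs. The 1 of 28 for *Pyy* may be this cell too.

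Most cells at high level held *Epcam* and *H2-Aa*, as did most cells without, and transcription factors of the pancreatic islet were rare in them. After thinning, 100% of the high-level cells of every gene held a UMI of the TEC list (*Epcam*, *Krt8*, *Krt5*, *H2-Aa*, *Cd74*), but so did 100% of the T cells, so *Epcam* itself is given. At full depth it was found in 84.4% (*Ppy*) to 100% (*Reg3b*) of high-level cells and in 6567 of the 7296 cells with none of the genes at high level, and the T cells lack it by definition. *H2-Aa*, a class II antigen presentation gene, was found in 98.2% (*Iapp*) to 100% of high-level cells, in 98.5% of the cells with none and in 65.7% of the T cells. Of 28 cells high in *Ins2*, 27 held *Epcam* and 28 *H2-Aa*, whereas *Pdx1* and *Nkx6-1*, which define beta cells, and *Neurod1* were found in 0, and *Neurog3* in 1. Over all genes the islet list (3 of its 4 genes are listed) had a UMI in 0% (*Spink1*, *Reg3b*) to 4.63% (*Pyy*) of high-level cells, against 0.33% of the cells with none of the genes at high level. *Chga*, a granule protein of endocrine cells, was found in 2 of 28 cells high in *Ins2* and 42 of 110 cells high in *Iapp*, against 1161 of 7296 cells (15.9%) with none of the genes at high level. The T cell list had a UMI at full depth in 0% (*Reg3b*) to 26.9% (*Sst*) of high-level cells and in 12.6% of the cells with none. The B cell list had one in 16.9% (*Ppy*) to 46.2% (*Sst*) against 9.65%, and at equal depth in 0% (*Ppy*, *Reg3b*) to 7.14% (*Ins2*) and in 7 of 26 cells (26.9%) for *Sst*, against 2.62%. At equal depth *Lyz2*, a myeloid marker, was found in 29.1% (*Iapp*) to 57.1% (*Ins2*) of high-level cells and in 11.5% of the rest, while *Csf1r* was found in at most 3.85% and *Itgax* in at most 1.82%. The other marker lists are given at equal depth. The microfold list (*Gp2*, *Ccl20*, *Ccl9*, *Tnfaip2*, *Spib*) had a UMI in 42 of 140 high-level cells for *Fabp6*, the lowest share, and in up to 75.0% (*Reg3b*), with 54.0% for *Spink1*, against 23.9% of the cells with none. The neuroendocrine list (8 genes, *Chga* among them) had one in 14.3% (*Ins2*) to 35.5% (*Iapp*) against 14.3%, and the list of *Ccl21a*-high cells in 49.4% (*Ppy*) to 81.2% (*Reg3b*) against 87.1%. The tuft list had one in 3.57% (*Ins2*) to 15.4% (*Sst*) and in 4 of 16 cells for *Reg3b*, against 13.3%, the cortical list in 18.8% (*Reg3b*) to 42.1% (*Fabp6*) against 33.7%, the keratinocyte-like list in 14.6% (*Calca*) to 26.9% (*Pyy*) against 16.2%, and the erythroid list in 1.46% (*Spink1*) to 7.86% (*Fabp6*) against 1.17%. The part of these markers in the results was not tested. Cells with and without a gene at high level were not matched for library or *Aire* class in these shares. *Aire*-high cells made up 475 of the 924 cells with any of the genes at high level. They made up 1294 of the 7296 with none. The part of *Aire* class and library in the marker shares was not tested. No removal of doublets is named in the sources used here and none was made, so a droplet with 2 cells counts as 1 cell.

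*Calca* and *Fabp6* were higher in *Aire*-high than in *Aire*-zero cells in every library, *Ppy* and *Pyy* rose by less, and *Spink1* fell. The question here is which of the genes follow the *Aire* level of the cell, and the unit is the library: UMIs were summed over the cells of each library and *Aire* class, giving 21 sums in CPM, the gene's UMIs scaled to a total common to all sums. *Calca* ranged from 1.88 to 38.3 CPM in *Aire*-zero cells of the 7 libraries (median 11.1), from 12.9 to 219.9 in *Aire*-low cells (median 84.6) and from 84.7 to 309 in *Aire*-high cells (median 258). No *Aire*-zero sum reached the lowest *Aire*-high sum. On the log2(CPM + 10) scale the *Aire*-high class exceeded the *Aire*-zero class by 3.27 (SE 0.35, limma with library as a block, adjusted p = 5.56e-07). It also exceeded the *Aire*-low class, by 1.48 (SE 0.35, limma adjusted p = 0.00399), which in turn exceeded the *Aire*-zero class by 1.79 (limma adjusted p = 0.00109). *Fabp6* ranged from 1.89 to 48.8 CPM in *Aire*-zero cells (median 22.2), from 3.02 to 323 in *Aire*-low cells (median 134.5) and from 111 to 399 in *Aire*-high cells (median 208), again with no overlap of the outer classes. The *Aire*-low level was below the *Aire*-zero level at anti-RANKL week 6 (19.5 against 28.9) and above the *Aire*-high level in the week 10 control (197 against 186). The *Aire*-high class of *Fabp6* exceeded its *Aire*-zero class by 3.25 (SE 0.50, limma adjusted p = 3.56e-05), the step from *Aire*-zero to *Aire*-low was 1.97 (limma adjusted p = 0.00757), and the step from *Aire*-low to *Aire*-high, 1.28, did not pass (limma adjusted p = 0.0612).

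The pancreatic polypeptide family genes rose by about the same amount. *Ppy* ranged from 0 to 71.3 CPM in *Aire*-zero cells (median 8.79) and from 0 to 173 in *Aire*-high cells (median 78.0), and *Pyy* from 4.55 to 246 (median 17.5) and from 10.6 to 358 (median 116). The ranges of the classes overlapped for both, and *Ppy* is unlisted, and entered as 0, at anti-RANKL week 4. *Ppy* was higher in *Aire*-high than in *Aire*-zero cells in 5 of 7 libraries and *Pyy* in 4 of 7. By high-level cells both were more frequent in *Aire*-high cells in 6 of 7 libraries, 3.18% ± 2.14 against 0.62% ± 0.76 for *Pyy* and 2.26% ± 1.34 against 0.37% ± 0.54 for *Ppy* (SD, n = 7 libraries). The differences were 1.29 for *Ppy* (SE 0.39, limma adjusted p = 0.00926) and 1.22 for *Pyy* (SE 0.49, limma adjusted p = 0.0410). *Ppy* passed in all 17 alternative settings and *Pyy* in 9 of them, with adjusted p up to 0.163 without the lineage trace library. In that library *Pyy* went from 4.55 CPM in *Aire*-zero to 76.8 in *Aire*-low and 358 in *Aire*-high cells, whereas in the week 2 control it stood at 246, 159 and 232.

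*Spink1* was the 1 gene of the 10 called lower. Its level was 0 to 1323 CPM in *Aire*-zero cells (median 150.5) and 0 to 174 in *Aire*-high cells (median 56.0), a difference of -1.32 (SE 0.53, limma adjusted p = 0.0418). At anti-RANKL week 4 the gene is unlisted and entered as 0; without that library the adjusted p was 0.0364. The call rests on the richest cells. A setting added after the data had been seen counted at most 5 UMIs of a gene per cell. Under it 3683 of all genes were higher and 3171 lower, with a median of 0.01. The *Spink1* difference was then -0.11 (limma adjusted p = 0.596). The call failed in 12 of 17 alternatives, this setting among them. At 2000 UMIs *Spink1* was found in 4.09% ± 3.93 of *Aire*-zero cells and 3.99% ± 2.87 of *Aire*-high cells (SD over 7 libraries), less apart than the libraries within a class. High-level cells made up 2.10% ± 2.42 and 1.10% ± 1.12.

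For *Reg3g* shares of cells and summed levels did not move together either, but in another way. At 2000 UMIs it was found in 11.5% ± 6.15 of *Aire*-zero, 18.5% ± 7.37 of *Aire*-low and 32.0% ± 9.57 of *Aire*-high cells (SD, n = 7 libraries), higher at both steps in 7 of 7 libraries. High-level cells made up 3.41% ± 3.11, 6.84% ± 3.67 and 13.3% ± 5.68, higher in *Aire*-high than in *Aire*-zero cells in 7 of 7. Its summed level nevertheless ran from 29.4 to 2882 CPM in *Aire*-zero cells (median 287.5) and from 188 to 678 in *Aire*-high cells (median 459), a difference of 0.40 (SE 0.51) that did not pass (limma adjusted p = 0.518). With at most 5 UMIs counted per cell the difference was 1.503 (limma adjusted p = 5.63e-07). *Iapp* changed sign with this setting, from -0.11 (limma adjusted p = 0.856) to 0.52 (limma adjusted p = 0.0499). Its shares of cells, however, were higher in *Aire*-high than in *Aire*-zero cells in 4 of 7 libraries and lower in 3.

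The remaining 3 genes did not pass between the outer classes: *Ins2* by 0.81 (limma adjusted p = 0.0599), *Sst* by 0.38 (limma adjusted p = 0.289) and *Reg3b* by 0.32 (limma adjusted p = 0.449). *Reg3b* exceeded *Aire*-zero cells in the middle class, by 1.07 (SE 0.35, limma adjusted p = 0.0281). Its *Aire*-low level was above the *Aire*-zero level in 4 of 7 libraries, at most in the week 2 control (107 against 8.88 CPM) and the lineage trace (77.6 against 2.22), and below it in 2, the week 10 control (2.39 against 8.36) and anti-RANKL week 4 (0 against 0.72). The limma adjusted p was 0.115 without the week 2 control and likewise without the lineage trace, 0.0743 without anti-RANKL week 2 and 0.0733 without week 10. In all, 4 of 10 genes were higher in *Aire*-high than in *Aire*-zero cells and 1 was lower, beside 20.8% higher and 37.9% lower of the 11054 genes tested. From *Aire*-zero to *Aire*-low, 3 were higher and none lower, beside 11.5% and 16.5%, and from *Aire*-low to *Aire*-high 1 was higher and none lower, beside 11.1% and 20.8%. The median of all genes between the outer classes was -0.13, and scaling by median ratios moved it to -0.02 and the calls of all genes from 2299 higher and 4189 lower to 2992 and 3035. Under that scaling *Calca*, *Fabp6*, *Ppy* and *Pyy* stayed higher, *Ins2* was also called (adjusted p = 0.0431) and *Spink1* was not (adjusted p = 0.0665).

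**Figure D1:**
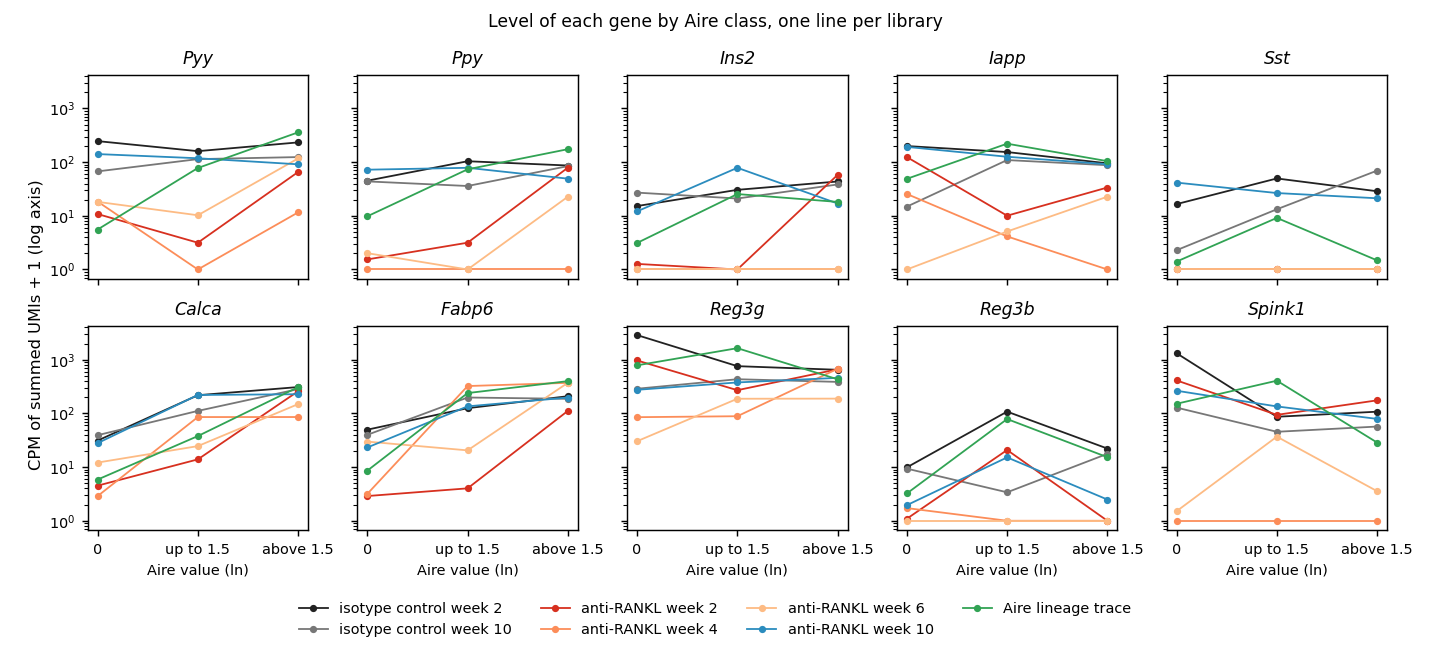
Summed level of each gene, as CPM + 1 on a log axis, in cells with an *Aire* value of 0, up to 1.5 and above 1.5, with 1 line for each of the 7 libraries. For *Calca* and *Fabp6* every *Aire*-high point lies above every *Aire*-zero point, whereas the lines of *Reg3g*, *Iapp* and *Spink1* start high in *Aire*-zero cells of several libraries, up to 1323 CPM for *Spink1* in the week 2 control.

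In a list of 48 other genes of hormones, the exocrine pancreas and the gut lining, 46 are listed and 29 passed the filter on low levels. Of these, 15 were higher and 2 lower in *Aire*-high than in *Aire*-zero cells, beside 20.8% higher and 37.9% lower of the 11054 genes tested. Their median was 1.08, against -0.13 for all genes tested and 0.61 for the 10 genes above. By group, 9 of 12 hormones, 4 of 7 exocrine pancreas genes (the proteases *Prss1*, *Cela3b* and *Ctrb1* and the lectin *Reg1*) and 2 of 10 gut lining genes were higher. The gut lining count is close to the share of all genes. The differences at the upper end were those of *Calcb* (3.77), which encodes the second calcitonin gene-related peptide and lies 82286 bases from *Calca*, *Cck* (2.03), which encodes cholecystokinin, and *Sct* (1.75), which encodes secretin. At the lower end stood *Guca2b* (-1.08, limma adjusted p = 0.00414), which encodes uroguanylin, *Adm* (-0.72, limma adjusted p = 0.00294), which encodes adrenomedullin, and *Spink4* (-0.65, limma adjusted p = 0.0755). *Reg3a* and *Reg3d*, near copies of *Reg3b* and *Reg3g*, and *Ins1*, a near copy of *Ins2*, fell below the filter, and reads that fit more than 1 copy may be split or lost among them.

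*Pyy* and *Ppy* were found in the same cells far more often than their frequencies give. At 2000 UMIs 91 cells held both, where 7.83 were expected from the shares within each library and *Aire* class, a ratio of 11.6. At full depth the numbers were 171 and 61.1, a ratio of 2.80, which became 4.92 without the week 2 control and 2.34 without the week 10 control. Among high-level cells 58 held both, which is 75.3% of cells high in *Ppy* and 53.7% of cells high in *Pyy*, against 2.44 expected. The observed number exceeded the expected one in 6 of 7 libraries, the other being anti-RANKL week 4, where *Ppy* is unlisted. *Reg3g* and *Reg3b* shared 30 cells at 2000 UMIs against 10.3 expected (ratio 2.91), and 11 of the 16 cells high in *Reg3b* were also high in *Reg3g*.

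Pairs from separate loci also shared cells. Of all 45 pairs, 42 had a ratio above 1 at 2000 UMIs, and the median over the 43 other pairs was 1.70. *Reg3b* and *Iapp*, far apart on chromosome 6, shared 8 cells against 2.11 expected (ratio 3.80), a higher ratio than that of *Reg3g* with *Reg3b*. When cells were also split into 4 bins by their UMIs the ratios of those pairs at full depth lay between 0.956 and 1.76 (median 1.18), against 2.67 for *Pyy* with *Ppy* and 1.24, within that range, for *Reg3g* with *Reg3b*. *Reg3g* and *Spink1* shared 130 cells at 2000 UMIs against 65.2 expected (ratio 1.99), and 55 cells were high in both against 10.5 expected, which is 40.1% of cells high in *Spink1* and 12.4% of cells high in *Reg3g*. *Pyy* and *Fabp6* shared 35 against 13.4 (ratio 2.62), above expectation in 7 of 7 libraries. *Spink1* and *Calca* shared 17 against 21.4 (ratio 0.795). Most cells held few of the genes: at 2000 UMIs 542 of 1763 *Aire*-high cells held 1 of the 10, 260 held 2, 77 held 3, 21 held 4 and 5 held 5, and 858 held none.

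**Figure D2:**
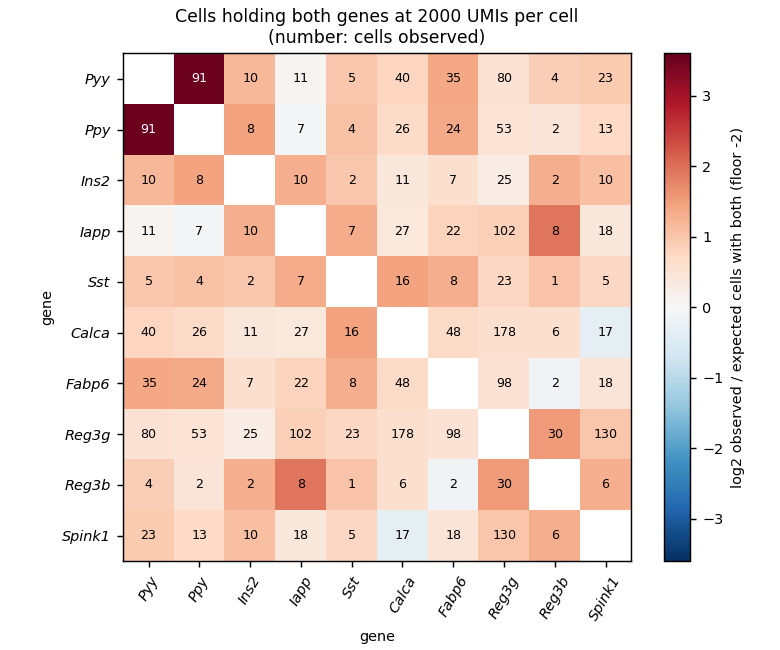
Cells that held both genes of a pair with each cell thinned to 2000 UMIs; the colour is log2 of the observed over the expected number and the figure in each square is the number of cells observed. *Pyy* and *Ppy*, with 91 cells, have the darkest square, and only 3 of 45 pairs fall below 1.

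The partners with the highest co-detection lay beside the gene in the genome in 8 of 30 cases. For each gene the 3 partners with the largest observed-to-expected ratio were taken among 14600 genes found in at least 20 thinned cells and sharing at least 5 cells with it. These counts include cells with 1 UMI of a gene, in which free RNA cannot be told apart. *Ins2* was found with *Igf2*, its neighbour at 11840 bases, in 7 cells against 0.39 expected (ratio 18.0), with *Th*, at 149371 bases, in 5 against 0.63 (ratio 7.90), and with *Gsdmc4* of another chromosome. *Igf2* encodes a growth factor of the insulin family and *Th* the rate-limiting enzyme of catecholamine synthesis. *Reg3b* was found with *Reg3a*, at 7243 bases, in 10 cells against 0.41 (ratio 24.2). *Mpp2*, a scaffold protein gene next to the *Ppy* and *Pyy* pair, was found with *Pyy* in 10 cells against 0.80 (ratio 12.6) and with *Ppy* in 7 against 0.56 (ratio 12.4). *Spink1* was found with *Cldn2*, a claudin, in 13 cells against 1.47 (ratio 8.87), with *Guca2a*, which encodes guanylin, in 18 against 2.21 (ratio 8.13), and with its neighbour *Scgb3a2*, an airway secretoglobin gene at 26732 bases, in 17 against 2.45 (ratio 6.93). For *Reg3g* the partners were *Ugt2b34*, *Agr2*, of mucus-secreting cells, and *Aldh1a7*, with ratios of 3.41 to 3.70. None of the partners of *Calca*, *Fabp6*, *Iapp* or *Sst* shared a chromosome with it: *Stab1*, *Stfa1* and *Mmel1* (ratios 4.03 to 4.26), *Fam162b*, *Slc5a1* and *Syce1l* (5.56 to 6.45), *Rab37*, *Ubxn10* and *Cd177* (7.41 to 9.21), and *9330182L06Rik*, *Lce1j* and *Cyp4f18* (14.9 to 15.8).

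Neighbours were then counted for every gene, within 250 kb, a window set with the data in view. Of 61 pairings of 1 of the 10 genes with a neighbour, 27 (44.3%) had at least 2 shared cells and a ratio of at least 2, against 7.11% of pairings with all other genes. Some neighbours count for 2 genes, as *Pyy* and *Ppy* share theirs. The neighbours that reached it were 3 of 3 for *Reg3g*, *Reg3b* and *Spink1*, 6 of 14 for *Pyy* and for *Ppy*, 4 of 8 for *Ins2* and 2 of 6 for *Iapp*. For *Fabp6* it was 0 of 7, for *Calca* 0 of 2 and for *Sst* 0 of 1, and *Calca* and *Fabp6*, with the largest *Aire* differences of the 10, were among these. *Calca* and *Calcb* shared 260 cells against 211 expected (ratio 1.23). Without *Pyy*, *Ppy* and the *Reg* genes as neighbours the share was 35.8%. One of the 27, *Slco1a5*, overlaps *Iapp* on the opposite strand. At full depth the ratio of each of the 27 was smaller, and those of some other neighbours were larger. At that depth 12 of the 61 pairings reached both limits (19.7%), against 1.10% of pairings with all other genes.

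**Figure D3:**
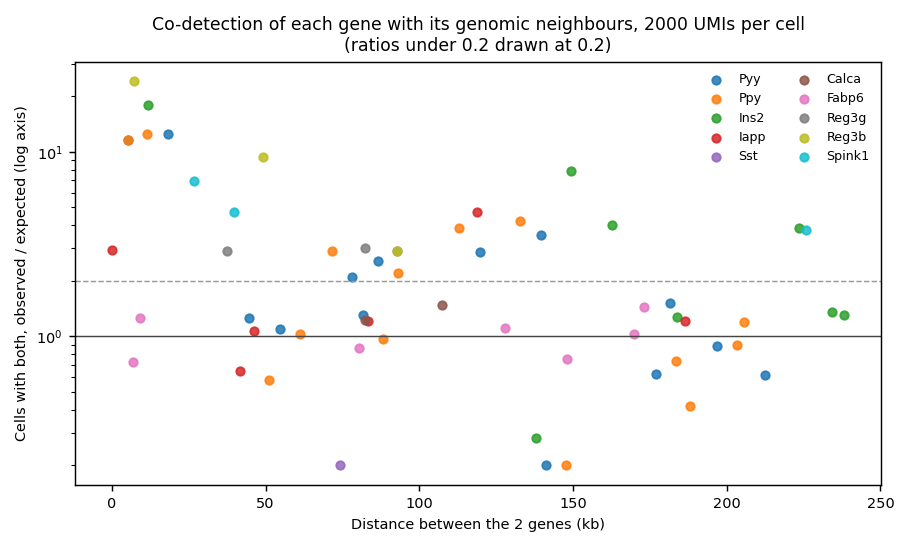
Observed over expected number of cells holding a gene and its neighbour (log axis, cells thinned to 2000 UMIs) against the distance between them in kb, with 1 point for each of 61 neighbours within 250 kb. The ratios above 10 all belong to neighbours of *Pyy*, *Ppy*, *Ins2* and *Reg3b* nearer than 20 kb, and the points of *Fabp6*, *Calca* and *Sst* lie below the dashed line at 2.

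After anti-RANKL the share of cells with any of the 10 genes was below both controls at weeks 2, 4 and 6 and between them at week 10, which the 1 library of each time point cannot test, and single genes differed from this. At 2000 UMIs a UMI of any of the 10 was found in 49.3% of cells of the younger control (95% interval 46.4 to 52.3) and 37.2% of the older one (34.5 to 40.0). The share was 22.6% at anti-RANKL week 2 (20.2 to 25.04), 7.09% at week 4 (5.77 to 8.60), 15.7% at week 6 (12.96 to 18.7) and 38.2% at week 10 (35.4 to 41.1). High-level cells made up 24.1% and 17.6% in the controls and 5.91%, 1.72%, 3.80% and 18.5% along the course. Any of the 10 was found in 4 of 28 T cells (14.3%, interval 4.03 to 32.7), which covers the shares at weeks 2, 4 and 6, so none of these is shown to exceed free RNA. The 4 include the T cell at high level for *Pyy* and *Ppy*. The shares of *Aire*-high cells in the same libraries were 40.4% and 44.0%, and 5.24%, 1.52%, 15.2% and 38.7%.

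By equal-depth UMIs *Calca* stood at 210.4 CPM in the younger control (week 2), at 172 in the older (week 10), and at 17.3, 4.10, 34.2 and 154 at weeks 2, 4, 6 and 10, so all 4 libraries lay below both controls, that of week 10 the nearest to them. *Ppy* went from 85.5 and 66.2 in the controls to 1.69 at week 2, unlisted at week 4, 5.32 at week 6 and 64.4 at week 10. *Pyy* went from 246 and 126 to 12.2, 23.1, 53.2 and 129. *Fabp6* was at 153 and 131 in the controls, 8.45 and 11.6 at weeks 2 and 4, already 96.5 at week 6 and 122 at week 10. *Spink1*, *Reg3g* and *Iapp* were not below both controls by CPM at week 2: they stood at 281, 590.4 and 120.4, within the range of the controls (97.0 to 449, 402 to 1430.5 and 90.2 to 185), and at week 6 at 6.08, 86.6 and 5.32. As above, 1 cell held 57.9% of the week 2 *Spink1* UMIs and 38.2% of those of *Reg3g* at full depth; in shares of cells *Spink1* was found in 4.31% of cells at week 2, between the controls (3.13% and 8.50%), and *Reg3g* in 15.8%, below both (22.8% and 30.03%). *Iapp* was found in 2.36% of cells at week 2, also below both (3.53% and 6.64%), and 1 cell held 20.4% of its UMIs in that library. Against the control of the same age alone, the week 2 levels of all 3 were lower, 281 against 449 CPM for *Spink1*, 590.4 against 1430.5 for *Reg3g* and 120.4 against 185 for *Iapp*. *Ins2*, *Sst* and *Reg3b* were found in at most 3 cells of any library from week 2 to week 6 at this depth, against 11 to 29 cells in the controls.

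At most 0.5 times the lower control was reached by 7 of the 10 genes at week 2, beside 12.4% of the 11468 genes compared, by 10 at week 4, beside 18.5%, by 9 at week 6, beside 16.8%, and by 1 (*Reg3b*) at week 10, beside 1.33%. With the week 10 control left out the number at week 10 was 3, with *Reg3g* at 374 CPM against 1430 in the week 2 control and *Spink1* at 154 against 449. The exceptions at week 2 were *Iapp*, *Reg3g* and *Spink1*, and at week 6 *Fabp6*. *Reg3g* at week 2, at 590 CPM, was an exception only by the older control (402). Against the control of its own age (1430) it reached the limit. The median ratio of the 10 genes to the mean of the controls was 0.098, 0.050, 0.054 and 0.75, where that of all genes was 1.01, 0.93, 0.88 and 0.99.

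In *Aire*-high cells alone, shares of cells, summed levels or both are given, at 2000 UMIs unless stated. In pooled cells, fewer *Aire*-high cells and less RNA of a gene in each cannot be told apart, so the cells above the limit are given by themselves. Any of the 10 was found at 2000 UMIs in 262 of 456 *Aire*-high cells of the week 2 control (57.5%, interval 52.8 to 62.0) and 268 of 549 of the week 10 control (48.8%, 44.6 to 53.1). At anti-RANKL week 2 it was 40 of 62 (64.5%, 51.3 to 76.3), at week 4 8 of 22 (36.4%, 17.2 to 59.3), at week 6 37 of 103 (35.9%, 26.7 to 46.0) and at week 10 229 of 453 (50.6%, 45.8 to 55.2). Only the interval of week 6 lay below that of the week 2 control, and it overlapped that of the week 10 control. For *Calca* the shares of *Aire*-high cells were 18.9% and 15.8% in the controls and 21.0%, 9.09%, 11.7% and 13.5% along the course, with overlapping intervals. Its summed level in these cells was 364 and 279 CPM in the controls, 234 at week 2, 45.5 at week 4, 136 at week 6 and 241 at week 10, so the levels of weeks 4 and 6 lay further below the controls than the shares. Only 2 UMIs stand behind the value at week 4, and at full depth it was 84.7 CPM from 16 UMIs, against 309 and 283 in the controls. *Fabp6* stood at 277 and 168 CPM in the controls and at 113, 227, 427 and 235 along the course, below both controls at week 2 alone. *Pyy* stood at 329 and 154 CPM in the controls and at 56.5, 22.7, 199 and 108 along the course, and *Ppy* at 121 and 86.5, and 24.2, unlisted, 24.3 and 58.5. These rest on few UMIs, 3 for *Ppy* at week 2 and 1 for *Pyy* at week 4. At full depth *Ppy* stood at 78.0 CPM at week 2, close to its controls (85.6 and 83.3), and *Pyy* at 64.6, below both (232 and 123). *Reg3g* was found in 31 of the 62 cells at week 2 (interval 37.0 to 63.0), which overlaps the control of the same age (36.0%, 31.6 to 40.6) and lies above the week 10 control (29.9%, 26.1 to 33.9). Its summed level in these cells was 648 and 412 CPM in the controls and 589, 659, 247.6 and 475.7 along the course, so the level at week 2 lay between the controls and only that of week 6 lay below both. *Iapp* and *Spink1* were found in 1 and 3 of 62 *Aire*-high cells at week 2 and in 2 and 1 of 103 at week 6, against 5.48% each in the younger control and 4.19% (*Iapp*) and 3.28% (*Spink1*) in the older one. The 3 of 62 for *Spink1* (4.84%) lies between its controls, and all of these intervals overlap. The summed level of *Iapp* in these cells was 97.6 and 99.3 CPM in the controls, 8.06 at week 2 (1 UMI) and 34.0 at week 6 (7 UMIs), below both controls at each. That of *Spink1* was 122 and 64.7 CPM in the controls, 145 at week 2 (18 UMIs), above both, and 4.85 at week 6 (1 UMI), below both. The 22 *Aire*-high cells of week 4 leave wide intervals for every gene.

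**Figure D4:**
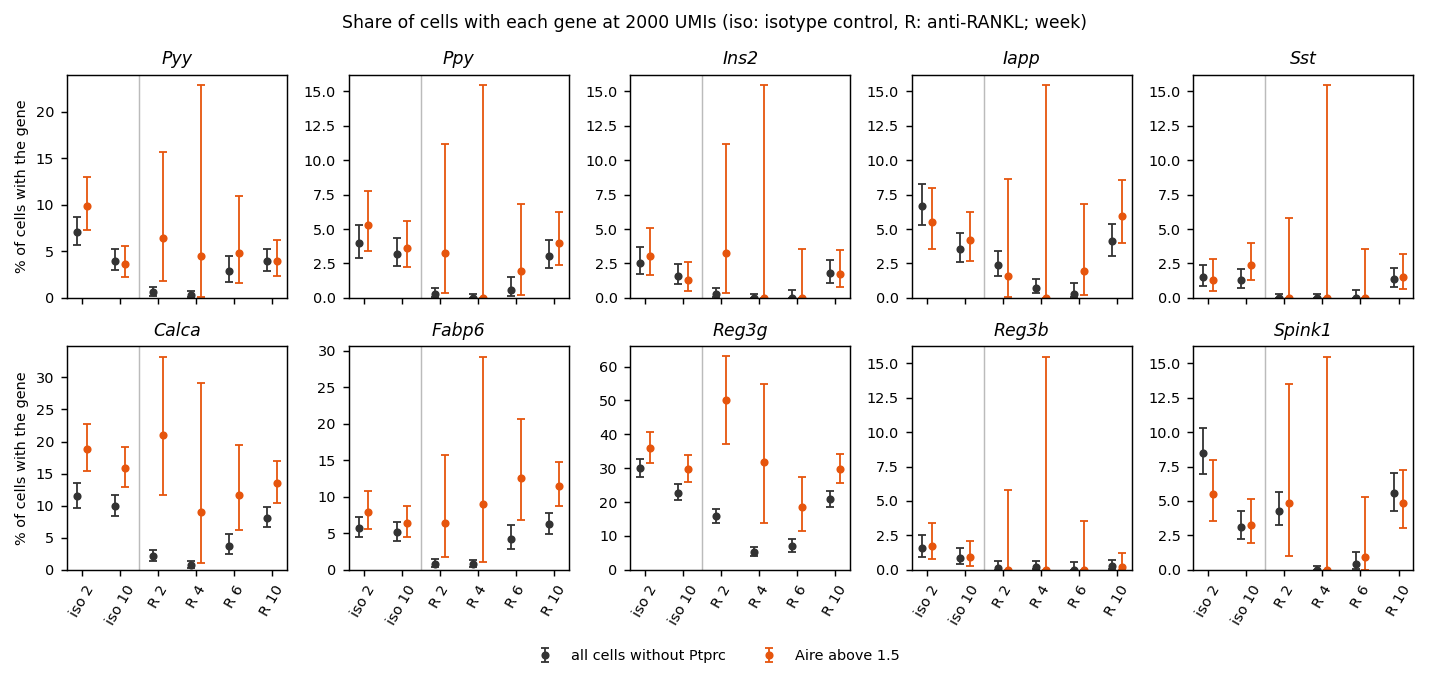
Percent of cells with at least 1 UMI of each gene after thinning to 2000 UMIs, in all cells without *Ptprc* (dark) and in *Aire*-high cells (orange), with exact 95% intervals, for both isotype controls and the 4 anti-RANKL time points; a gene unlisted in a library is drawn at 0, with an interval that leaves out the up to 2 cells its filter may have hidden. For *Calca* the dark points drop from 11.5% and 9.94% to 0.746% at week 4, under the 3.57% of T cells, and the orange points lie between 9.09% and 21.0% while the summed level in those cells at week 4 was 45.5 CPM (84.7 at full depth) against 279 and 364 in the controls (283 and 309).

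In the lineage trace library a transcript listed as GFP, listed in no other library, is taken as that of the reporter, since none is listed as ZsGreen. It was found in 106 of 118 *Aire*-high cells (89.8%), 115 of 169 *Aire*-low cells (68.0%) and 413 of 1031 *Aire*-zero cells (40.1%). Its share in cells that lack the reporter could not be measured, with 0 of 4 T cells holding it (interval up to 60.2) and 44 of 69 cells with *Ptprc* (63.8%), so a cell with the transcript is not called marked, and only shares within this library are set side by side. Among *Aire*-zero cells with 1 of the 10 genes at high level, 27 of 37 (73.0%, interval 55.9 to 86.2) held GFP, against 386 of 994 without (38.8%, 35.8 to 41.9). For *Spink1* it was 12 of 12 (interval 73.5 to 100), for *Reg3g* 14 of 22 (63.6%, 40.7 to 82.8) and for *Iapp* 6 of 8 (75.0%, 34.9 to 96.8). The 37 cells were somewhat deeper, with a median of 10971 UMIs against 8299. At 2000 UMIs 14 of 37 (37.8%, 22.5 to 55.2) held GFP against 137 of 994 (13.8%, 11.7 to 16.1). Of the 12 high in *Spink1*, 8 held it (66.7%, 34.9 to 90.1). The part of depth was not tested. In *Aire*-low cells 25 of 26 with a gene at high level held GFP (96.2%, 80.4 to 99.9), against 90 of 143 without (62.9%, 54.5 to 70.9). In *Aire*-high cells the shares were 32 of 35 (91.4%) and 74 of 83 (89.2%), with overlapping intervals. This is 1 library, so the differences have no replicate check. *Spink1* was at high level in 12 *Aire*-zero, 7 *Aire*-low and 0 of 118 *Aire*-high cells there, whereas *Calca* was in 1, 2 and 10.

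**Figure D5:**
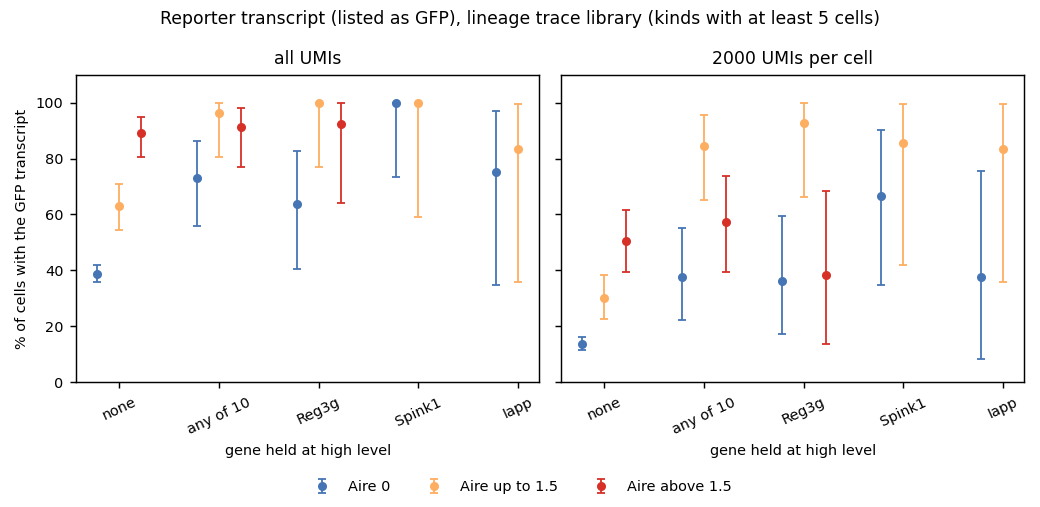
Percent of cells of the lineage trace library with a UMI of the transcript listed as GFP, with exact 95% intervals, by the gene held at high level and by *Aire* class, at all UMIs (left) and at 2000 UMIs per cell (right). Among *Aire*-zero cells all 12 high in *Spink1* held it, against 38.8% of cells with none of the genes at high level.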

How the data were processed

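Thymic epithelial cells were sorted as EpCAM+ CD45- from pools of 3 thymi, and 7 droplet libraries were aligned and counted with Cell Ranger 2.2.0 and processed with Seurat 2.3.4, per the submitters' processing notes. The values deposited by the authors are natural log values, ln(1 + UMIs scaled to a fixed cell total). The study's methods give another scale factor, but the values of every cell, transformed back, sum to 10000. Genes in fewer than 3 cells of a library had been removed. Whole UMIs were recovered in all 8453 cells (tolerance 0.001). UMIs were summed by library and *Aire* class (at least 20 cells), and log2(CPM + 10) of genes with a mean CPM of at least 5 was fitted with limma 3.58.1 (R 4.3.3), with library as a block, a trend in the variance and Benjamini-Hochberg adjustment over all genes tested (threshold 0.05). The fit was run on simulated sums with a spread common to all genes. That setting has no genes carried by a few very rich cells, as several of the 10 are, and does not speak to them. Intervals are exact binomial (Clopper-Pearson, 95%) and cover counting error only. For equal depth each cell was thinned to 2000 UMIs, which left out 172 cells. Expected co-detection was computed within library and *Aire* class. Python 3.11.15 with numpy 2.4.6, scipy 1.17.1 and pandas 2.3.3 was used. Each library is a pool and cells are not replicates. With library as a block, p-values rest on how far class differences vary among 7 libraries of different treatments. The combined tables of the series were not used. The members and lists were chosen with earlier results of these data known. Named beside the 10 genes are the 3 related genes at either end of the *Aire* difference and, for each gene, the 3 partners with the largest co-detection ratio (at least 20 cells, 5 shared).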

Additional observations from a re-analysis of the deposited data

How the results depend on the processing

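*Calca*, *Fabp6* and *Ppy* were called in all 17 alternatives, *Pyy* in 9, *Spink1* in 5 and *Ins2* in 4. The members called between the outer *Aire* classes were 5, but 3 with a pseudocount of 1, with no filter on low genes or with an *Aire* limit of 1, and 3 to 5 on leaving out 1 library (3 without the lineage trace, the week 10 control or anti-RANKL week 2). Thinning to 2000 UMIs took the genes called from 6488 to 4090 (*Aire*-high against *Aire*-zero), from 3102 to 703 (*Aire*-low against *Aire*-zero; 2059 with an *Aire* limit of 1) and from 3530 to 1712 (*Aire*-high against *Aire*-low). *Iapp* (-0.11) turned to 0.0325 with median ratio scaling and to 0.52 with at most 5 UMIs per cell, and lay between -0.47 and 0.17 on leaving out 1 library. On leaving out 1 library *Reg3g* lay between -0.0099 (without anti-RANKL week 4) and 0.82, and *Sst* between -0.0286 (without the week 10 control) and 0.56. Thinned to 1000 UMIs, the share of cells with a member over the control mean was 0.131 at week 4 (0.164 at 2000) and 0.971 at week 10 (0.883), and in *Aire*-high cells 1.05 at week 10 (0.951). With 1 control left out the week 10 share was 0.775 to 1.03 times the other, and without the week 10 control 3 members were at most 0.5 of the control. *Pyy* with *Ppy* had a ratio of 2.80 at full depth, 11.6 thinned, and 2.34 to 4.92 on leaving out 1 library. *Reg3g* with *Reg3b* had 1.30, 2.91 thinned, and 1.22 to 1.75 on leaving out 1 library (1.75 without the week 2 control). The reporter transcript in *Aire*-zero cells with a member at high level was 73.0%, and 37.8% thinned. High-level cells numbered 924, 1186 at 5 and 625 at 20 UMIs per 10000. Causes were not tested. Thinning and leaving out a library leave fewer UMIs by design. No paired analysis was possible because the replicate numbers name only the 2 isotype controls, libraries of the same age are 1 against 1, and the *Aire* classes of a library were already fitted with library as a block.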
